A study of Arabidopsis thaliana with 3 samples.

Results

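The 40S subunit is the smaller part of the cytosolic ribosome, and in Arabidopsis each of its proteins is encoded by a small family of nuclear genes called paralogs. Here 60 loci of 25 cytosolic 40S proteins were listed, and a locus was kept where a probe set was paired with it alone in the platform annotation. That left 36 genes of 19 proteins, of 13355 loci with a probe set of their own on the array. Of the other 24 loci, 10 lie on probe sets shared between several genes and 14 were not paired with any probe set, and some proteins, RPSa, RPS6, RPS15a, RPS20 and RPS23 among them, had no probe set of a single gene.

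RNA came from seed of Arabidopsis thaliana ecotype Columbia in 3 states. The first was seed imbibed for 3 days with trichostatin A (TSA), the second was seed imbibed for 3 days without it, and the third was unimbibed seed. Imbibition is the uptake of water that starts germination, and TSA inhibits histone deacetylases, enzymes that remove acetyl groups from histones. The treated sample is labelled with 10 µM TSA, while another field of the labels gives the same number in millimolar. All seed was of 1 ecotype, the imbibed seed lay on Murashige and Skoog agar in 16 h light, and whole seed was used, so the signals average over all its cell types. Fewer cells of a type and less RNA per cell cannot be told apart in such samples.

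Each state was measured on 1 Affymetrix ATH1 array, so there was no replicate, no difference has a replicate check and no test was possible. Values are MAS5 signals scaled to the same 2% trimmed mean, with signals under a floor of 10.7 raised to it. A gene is said to have risen or fallen where its signal differed by at least 2-fold. The SD of the log2 ratios of 18 hybridisation controls was 0.14 for TSA over untreated seed, 0.17 for untreated over unimbibed seed and 0.13 for TSA over unimbibed seed. Probe sets of the same locus gave log2 ratios that differed by a root mean square of 0.54, 1.09 and 0.9995 in these comparisons. Neither gauge includes the variation between batches of seed.

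A ribosome's small subunit binds the messenger RNA and checks the pairing of codon and transfer RNA. Its proteins are needed in fixed proportions, and genes for them are known to be transcribed strongly in growing tissues. Dry Arabidopsis seed is known to store ribosomes and messenger RNAs, and protein synthesis resumes on imbibition.

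Transcripts of the 40S proteins were lower in TSA-treated seed than in untreated imbibed seed. Of the 36 genes 29 fell and 0 rose, where 9.12% of all 8533 measured loci fell and 9.42% rose. The median log2 ratio was -1.54, that is a signal 2.91 times lower with TSA, against a median of -0.03 for all measured loci. The median signal was 155.3 in TSA-treated seed, against 525.5 in untreated imbibed seed. In 35 of 36 genes the TSA signal was the lower one, as it was in 51.9% of all measured loci. The interquartile range of the log2 ratios, -1.74 to -1.23, was narrow beside that of all loci, -0.49 to 0.42.

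Imbibition without TSA had moved the same genes the other way. In untreated imbibed over unimbibed seed 18 of 36 genes rose and 1 fell, against 20.0% and 21.5% of 8953 measured loci. With signals as deposited 31 rose, and with the poly-A controls set equal 34 rose and 0 fell. The median log2 ratio was 1.09, and -0.04 over all measured loci. In 35 of 36 genes the untreated imbibed signal was the higher one, against 48.5% of all loci. The TSA and the imbibition ratios share the untreated array, so a deviation of that array would enter both with opposite sign.

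The comparison of TSA-treated with unimbibed seed does not use that array, except through the floor, which was set over all 3 arrays. There 33 of 36 genes lay within 2-fold, where 56.3% of 8976 measured loci did, with 0 genes higher and 3 lower against backgrounds of 20.4% and 23.3%. With signals as deposited 6 genes were higher and 1 lower, and with the poly-A controls set equal 12 and 1. The median log2 ratio was -0.32, but 0.42 with signals as deposited, 0.35 with the hybridisation controls set equal and 0.91 with the poly-A controls set equal. The direction of this median depends on the scaling. The median of all measured loci was -0.12, and 0.44, 0.39 and 0.74 under those other scalings.

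**Figure D1:**
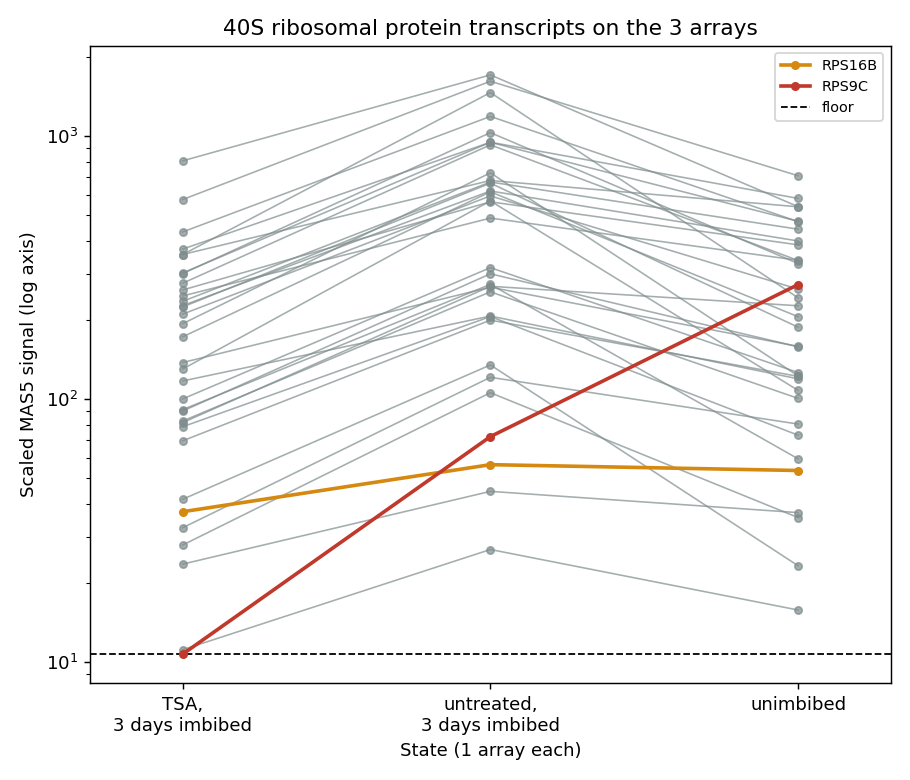
Scaled MAS5 signal (log axis) of each of 34 of the genes on the arrays of TSA-treated imbibed, untreated imbibed and unimbibed seed, 1 line per gene, with the floor of 10.7 dashed. Most lines peak in untreated imbibed seed; RPS9C is at the floor with TSA and highest in unimbibed seed.

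Bright loci fell with TSA and rose on imbibition more often than all measured loci, and the 40S genes are bright. Among the 752 loci whose mean signal over the 3 arrays was at least that of the lower quartile of the 40S genes, 18.8% fell with TSA, against 23 of the 27 40S genes of that brightness. In the imbibition comparison 39.2% of the bright loci rose, against 15 of 27 40S genes. The median log2 ratio of the bright loci was -0.07 in the TSA comparison and 0.56 in the imbibition comparison. The 752 bright loci include these 27 genes and bright genes of the large ribosomal subunit. Their shares are thus not independent of the ribosomal genes, and the part of brightness alone was not tested.

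**Figure D2:**
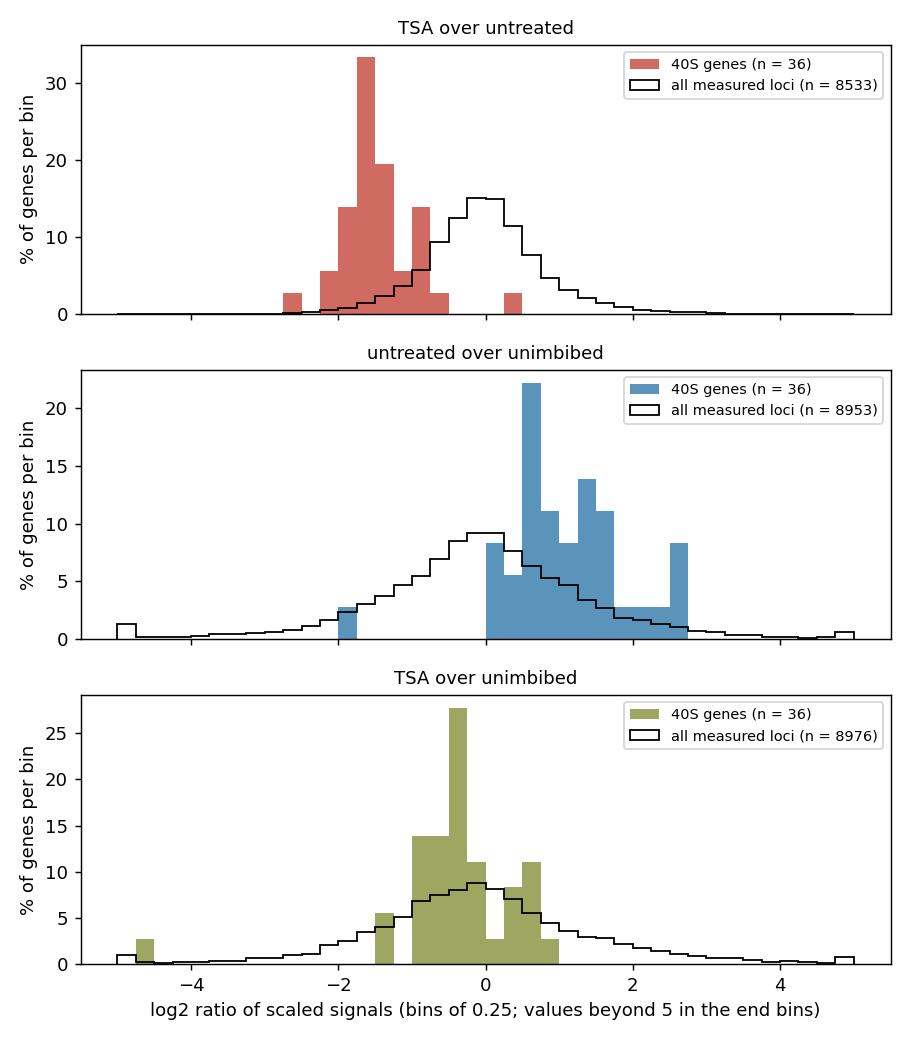
Share of genes per bin of log2 ratio in 3 comparisons, for the 36 genes of the 40S subunit (filled) and all measured loci (black outline). The 40S genes gather around a median of -1.54 in the top panel, 1.09 in the middle one and -0.32 in the bottom one.

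The genes are described below by place on the subunit. Of all 36 genes 29 fell with TSA and 18 rose on imbibition, against 9.12% and 20.0% of all measured loci. The groups by place are small, and differences between them were not tested. Calls on imbibition below are those of trimmed mean scaling. With signals as deposited 31 genes rose, and with the hybridisation controls set equal 32 did. A gene described below as short of 2-fold on imbibition may thus pass it under those scalings. The proteins around the messenger RNA entry channel were represented by 5 genes, of which 4 fell with TSA. RPS2, a protein of the entry channel, was measured through 2 genes. RPS2C (AT2G41840) had a signal of 805.5 with TSA, against 1709 in untreated imbibed and 539.4 in unimbibed seed. It rose 3.17-fold on imbibition and fell by 1.09 on the log2 scale with TSA, so its TSA signal still exceeded the unimbibed one by a log2 ratio of 0.58. RPS2D (AT3G57490) was dim, with 23.6 with TSA, 44.7 in untreated imbibed and 37.1 in unimbibed seed, and its log2 ratios of -0.92 and 0.27 did not reach 2-fold. RPS3C (AT5G35530) encodes a form of RPS3, a protein of the same channel whose human homologue also acts in DNA repair. Its signal was 372.0 with TSA, against 947.7 in untreated imbibed and 474.6 in unimbibed seed. That is a fall by 1.35 on the log2 scale with TSA, while the imbibition ratio of 1.997 was just short of 2-fold.

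RPS9, the third protein lining the channel, had paralogs that went apart. RPS9B (AT5G15200) followed the rest, with 574.0 with TSA, against 1617 in untreated imbibed and 707.0 in unimbibed seed. RPS9C (AT5G39850) was at the floor with TSA, against 72.1 in untreated imbibed and 272.9 in unimbibed seed. It was the 1 gene of the 36 that fell on imbibition, by 1.92 on the log2 scale, and it fell at least 6.72-fold further with TSA. With trimmed mean scaling its TSA signal was thus at least 25.4-fold below that of unimbibed seed. This bound depends on the scaling. The imbibition log2 ratio of RPS9C was -1.21 with signals as deposited, -1.18 with the hybridisation controls set equal and, short of 2-fold, -0.24 with the poly-A controls set equal.

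The proteins of the head of the subunit gave 12 genes, of which 11 fell with TSA and 7 rose on imbibition. RPS19, needed for processing of the precursor of the small ribosomal RNA and known in human from mutations in Diamond-Blackfan anaemia, was measured through 3 genes. RPS19A (AT3G02080) had 276.0 with TSA, against 926.7 in untreated imbibed and 336.7 in unimbibed seed. RPS19B (AT5G15520) had 27.9, 105.9 and 35.5 in the same order of states. For RPS19C (AT5G61170) the signals were 193.7 with TSA, against 725.3 without it and 122.6 in unimbibed seed. All 3 fell to a like extent with TSA, with log2 ratios of -1.75, -1.92 and -1.90, and all 3 rose on imbibition, RPS19C by 5.92-fold.

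RPS10, at the beak side of the head near the mRNA entry, was measured through RPS10A (AT4G25740) and RPS10C (AT5G52650). RPS10A had a signal of 91.3 with TSA, against 273.3 in untreated imbibed and 59.3 in unimbibed seed. RPS10C had 224.3 with TSA, against 662.6 and 187.8. Both lay lower with TSA by nearly the same log2 ratio, -1.58 and -1.56, and both had risen on imbibition, by 2.20 and 1.82 on the log2 scale.

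RPS12, a protein of the beak, had RPS12A (AT1G15930) at 432.3 with TSA, against 1188 in untreated imbibed and 473.0 in unimbibed seed. RPS12C (AT2G32060) was at 90.2, against 299.8 and 158.2. Both fell with TSA, by 1.46 and 1.73 on the log2 scale, while RPS12A alone passed 2-fold on imbibition and RPS12C was 1.89-fold higher. With signals as deposited the imbibition log2 ratio of RPS12C was 1.63.

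RPS25, which in yeast and mammals is needed for translation from certain internal entry sites, was represented by RPS25B (AT2G21580) and RPS25E (AT4G39200). RPS25B had 69.5 with TSA, against 199.8 in untreated imbibed and 122.1 in unimbibed seed. RPS25E had 235.5, against 669.3 and 442.9. Their TSA ratios, -1.52 and -1.51, were the closest of any pair of paralogs, and neither passed 2-fold on imbibition, with log2 ratios of 0.71 and 0.60. For RPS25B the imbibition log2 ratio was 1.42 with signals as deposited.

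The remaining head proteins had 1 measured gene each. RPS17C (AT3G10610) had 41.7 with TSA, against 135.0 in untreated imbibed and 23.3 in unimbibed seed. It rose 5.80-fold on imbibition and had the highest ratio of TSA over unimbibed seed among the genes above the floor on both arrays, 0.84 on the log2 scale. RPS15D (AT5G09510), of a family near the decoding site, had 32.5 with TSA, against 121.2 without it and 80.5 in unimbibed seed. It fell by 1.90 with TSA and, at -1.31 on the log2 scale, also lay below unimbibed seed, though by -0.57 with signals as deposited, -0.64 with the hybridisation controls set equal and -0.06 with the poly-A controls set equal, all short of 2-fold. RPS16B (AT3G04230), of the family whose tail reaches the peptidyl site, had 37.4 with TSA, against 56.4 and 53.6, and passed 2-fold in no comparison.

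The platform, on the side where the messenger RNA leaves, gave 7 genes, of which 6 fell with TSA and 3 rose on imbibition. RPS3a, a platform protein that contacts initiation factor eIF3, was measured through RPS3aA (AT3G04840) and RPS3aB (AT4G34670). RPS3aA had 354.7 with TSA, against 1464 in untreated imbibed and 242.8 in unimbibed seed, the widest swing upward on imbibition of the 36 genes (6.03-fold). Its fall with TSA was 4.13-fold. RPS3aB had 301.9 with TSA, against 948.2 and 579.8, and fell 3.14-fold with TSA without having passed 2-fold on imbibition (1.64-fold).

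RPS14 lies at the exit of the messenger RNA. RPS14A (AT2G36160) had 226.9 with TSA, against 618.7 in untreated imbibed and 399.5 in unimbibed seed. RPS14B (AT3G11510) had 300.3, against 1031 and 327.9. RPS14C (AT3G52580) had 81.5, against 268.7 and 226.6. All 3 fell with TSA, by 1.45, 1.78 and 1.72 on the log2 scale, while only RPS14B rose on imbibition, by 1.65, and RPS14C, at -1.48, lay below unimbibed seed after TSA. That last ratio fell short of 2-fold with signals as deposited (-0.73), with the hybridisation controls set equal (-0.80) and with the poly-A controls set equal (-0.23). The imbibition log2 ratio of RPS14A was 1.34 with signals as deposited, past 2-fold.

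RPS21, a small protein on the solvent side next to RPSa, had, in both steps, the most unequal pair of paralogs among those above the floor on all arrays. RPS21B (AT3G53890) had 130.2 with TSA, against 567.2 in untreated imbibed and 108.1 in unimbibed seed, a rise of 5.25-fold on imbibition and a fall by 2.12 on the log2 scale with TSA. RPS21C (AT5G27700) had 354.9, against 678.3 and 538.8, with log2 ratios of -0.93 and 0.33 that did not reach 2-fold.

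The body of the subunit gave 12 genes, of which 8 fell with TSA and 6 rose on imbibition. RPS7, which acts in maturation of the small subunit in yeast and human, had 3 genes. RPS7A (AT1G48830) had 247.0 with TSA, against 488.1 in untreated imbibed and 337.4 in unimbibed seed, with a TSA log2 ratio of -0.98. RPS7B (AT3G02560) had 260.2, against 562.8 and 386.2, and fell by 1.11. RPS7C (AT5G16130) had 172.7, against 614.3 and 205.9, and fell by 1.83. Only RPS7C rose on imbibition with trimmed mean scaling, 2.98-fold. With signals as deposited the imbibition log2 ratios of RPS7A and RPS7B were 1.24 and 1.25, past 2-fold.

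RPS4 showed a like arrangement. RPS4A (AT2G17360) had 117.3 with TSA, against 207.1 in untreated imbibed and 119.6 in unimbibed seed, and did not reach 2-fold in either step. RPS4B (AT5G07090) had 100.2, against 316.4 and 126.3. RPS4D (AT5G58420) had 82.6, against 256.0 and 100.7. The B and D genes fell with TSA by 1.66 and 1.63 on the log2 scale, after rises of 2.50-fold and 2.54-fold on imbibition.

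RPS24, known in human from Diamond-Blackfan anaemia like RPS19, had RPS24A (AT3G04920) at 137.9 with TSA, against 266.6 in untreated imbibed and 158.8 in unimbibed seed. RPS24B (AT5G28060) was at 78.6, against 206.2 and 73.0. RPS24B fell by 1.39 with TSA and had risen 2.82-fold, while RPS24A had log2 ratios of -0.95 and 0.75. The measured RPS13 gene (AT3G60770), whose protein takes part in a bridge to the large subunit, had 210.6 with TSA, against 592.7 and 262.1, and both rose and fell past 2-fold. RPS11B (AT4G30800) was dim, at 11.2 with TSA, against 26.8 in untreated imbibed and 15.8 in unimbibed seed, and its TSA log2 ratio of -1.27 was -0.25 with the floor at the 60th percentile.

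**Figure D3:**
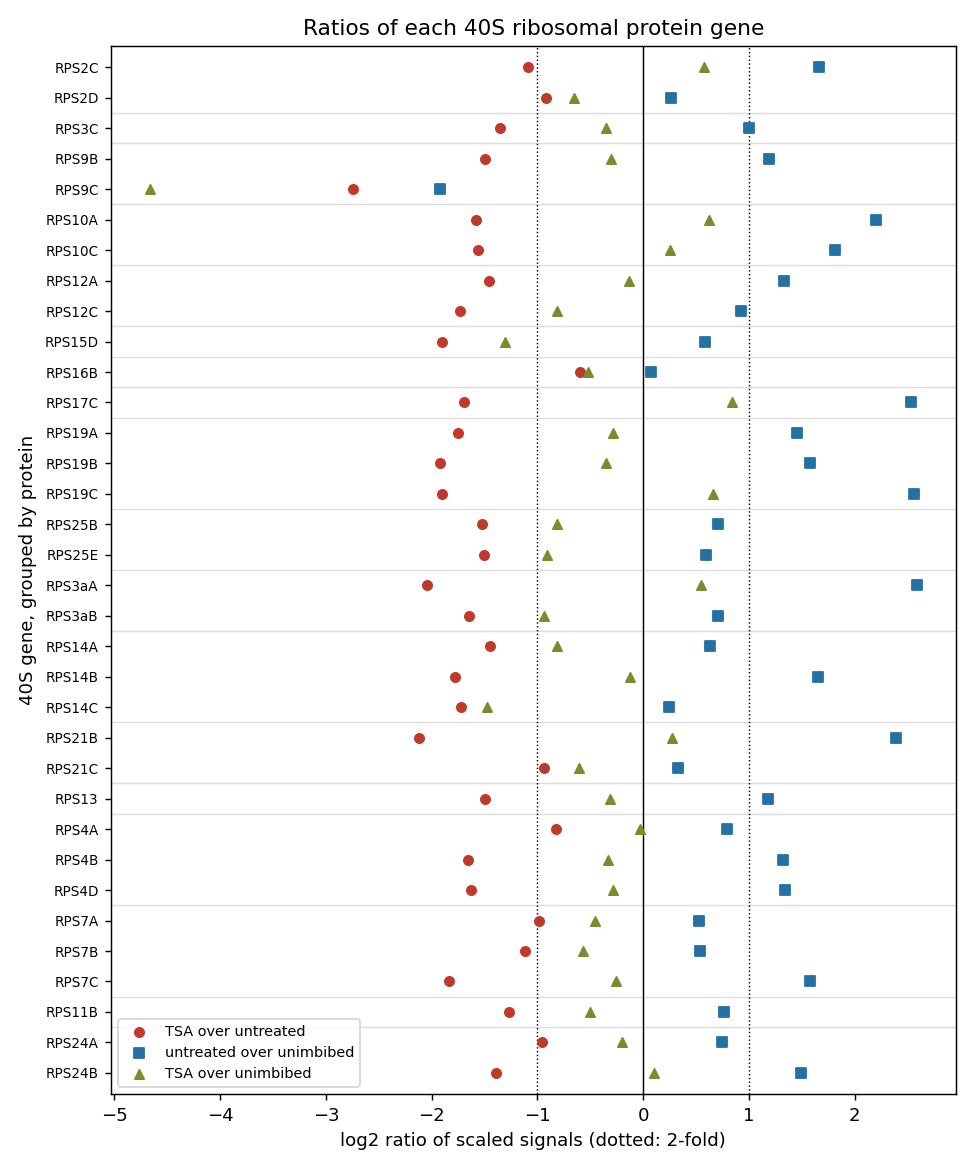
Log2 ratios of scaled signals for 34 of the genes, grouped by protein, for TSA over untreated imbibed seed (circles), untreated imbibed over unimbibed seed (squares) and TSA over unimbibed seed (triangles), with 2-fold dotted. Circles lie left of 0 for all 34 genes drawn and squares right of 0 for 33, all but RPS9C; the 1 gene of all 36 with a TSA ratio above 0 is among those not drawn.

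Paralogs were compared by their ratios and not by their signals, since the signals of different probe sets cannot be set against each other. In 13 proteins 2 or more genes were measured, 30 genes in all. With TSA over untreated seed the highest and the lowest paralog of a protein differed by a median of 0.39 on the log2 scale, and in 8 of 13 proteins by less than 0.5. The gap reached 2-fold in 3 proteins, among them RPS9 with at least 1.25 and RPS21 with 1.19. The RPS9 gap rests on RPS9C at the floor. For untreated over unimbibed seed the median gap was 1.10, and 8 of 13 proteins reached 2-fold.

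Among those 8 were RPS9 with 3.11, RPS21 with 2.06, RPS3a with 1.88, RPS14 with 1.41, RPS2 with 1.40, RPS19 with 1.10 and RPS7 with 1.04. RPS10, RPS12 and RPS25 had gaps of 0.38, 0.41 and 0.11. In the RPS19 family all 3 genes rose, so the gap is one of size, while in RPS9 the paralogs moved in opposite directions. For TSA over unimbibed seed the median gap was 0.85, and RPS9, RPS3a, RPS14, RPS2 and RPS19 reached 2-fold, with at least 4.37, 1.49, 1.35, 1.23 and 1.01.

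Gaps of a like size were also present between probe sets of the same locus. Over 20 pairs of paralogs above the floor on both arrays the root mean square gap was 0.67 for TSA over untreated seed, against 0.54 over 49 pairs of probe sets of the same locus. For untreated over unimbibed seed it was 1.19 over 20 pairs of paralogs, against 1.09 over 44 pairs of probe sets of the same locus. A gap of at least 2-fold was present in 45% of those paralog pairs and in 45.5% of the pairs of probe sets. For TSA over unimbibed seed paralogs differed less, by 0.73 over 19 pairs, against 0.9995 over 45 pairs of probe sets of the same locus. There 21.1% of the paralog pairs and 31.1% of the pairs of probe sets differed by at least 2-fold. Of the named gaps, those of RPS9, RPS21 and RPS3a on imbibition exceeded the probe set gauge by more than 1.5 times, as did those of RPS9, RPS21, RPS7 and RPS4 with TSA. The gaps of RPS7 and RPS4 are between the extremes of 3 genes each. All of these gaps are among the larger ones, and single pairs of probe sets can also exceed their root mean square. With TSA over untreated seed 8.16% of the pairs of probe sets of the same locus differed by at least 2-fold. Passing the gauge thus does not set paralogs apart from probe sets of the same locus.

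**Figure D4:**
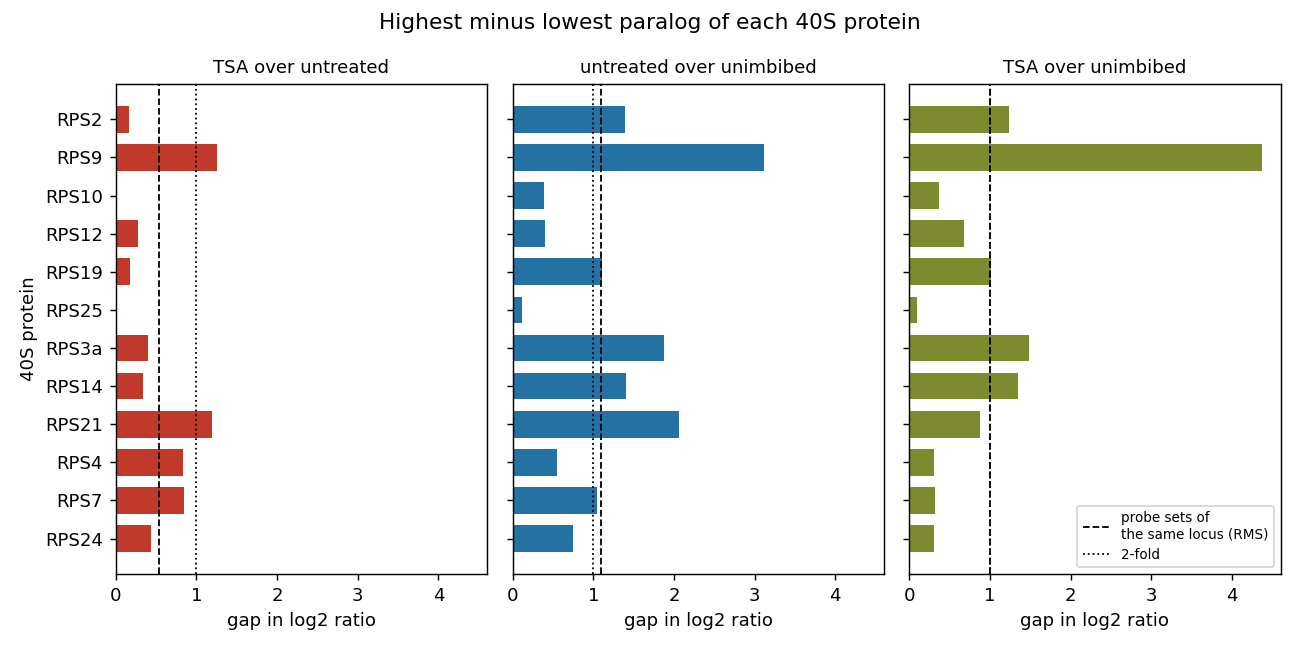
Gap in log2 ratio between the highest and the lowest paralog of each of 12 proteins in 3 comparisons, with the root mean square gap between probe sets of the same locus dashed and 2-fold dotted. With 1 signal at the floor, the bars of RPS9 in the outer panels are lower bounds; of the 3 proteins at 2-fold or more in the left panel 2 are drawn.

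Probe sets shared by several genes were left out of all counts above, and they are described here because they hold 10 of the listed loci. All 6 such probe sets were paired with loci of 1 40S protein each, and all 6 fell with TSA, with log2 ratios between -1.82 and -1.10. Of all measured loci 9.12% fell with TSA and 20.0% rose on imbibition. The probe set of both RPS23 genes (AT3G09680 and AT5G02960), whose protein sits at the decoding centre, had 641.0 with TSA, against 1622 in untreated imbibed and 786.7 in unimbibed seed. The RPS20 probe set (AT3G45030 and AT5G62300) had 332.5, against 1040 and 560.1. For RPS2A (AT1G58380) and 3 further RPS2 loci the signals were 419.8, against 1480 and 864.0. Only the RPS23 probe set passed 2-fold on imbibition, at 2.06-fold.

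Other genes of the translation machinery were read from lists written with the 40S results known. Of 76 measured genes of the cytosolic 60S subunit 71 fell with TSA and 0 rose (median log2 ratio -1.58), and 50 of 77 had risen on imbibition (median 1.20). Of all measured loci 9.12% fell and 9.42% rose with TSA, and 20.0% rose and 21.5% fell on imbibition. The TSA log2 ratios of AT2G20450, AT5G60670, AT3G09200 and AT2G34480 among them were -2.63, -2.38, -1.87 and -1.72. Among 7 measured 40S genes outside the 60 loci 5 fell with TSA and 0 rose, including RPS26C (AT3G56340) with 216.1 with TSA, against 700.7 in untreated imbibed and 200.02 in unimbibed seed, and AT5G47930, an RPS27 gene, with 180.7, against 496.9 and 288.5. Only 6 of 27 listed ribosome biogenesis factors were measured. Of these 4 fell with TSA, and 0 had passed 2-fold either way on imbibition.

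Among those factors AT5G41190, a homologue of the yeast NOB1 nuclease that trims the end of the small ribosomal RNA, had 34.4 with TSA, against 98.3 in untreated imbibed and 131.2 in unimbibed seed. DIM1A, which methylates that RNA, had 44.4, against 104.0 and 119.7. AT5G14520, a homologue of the large subunit factor pescadillo, had 31.0, against 141.5 and 253.5. These 3 genes were lower than in unimbibed seed after TSA, with log2 ratios of -1.93, -1.43 and -3.03. The ratio of DIM1A (AT2G47420) was -0.69 with signals as deposited, -0.76 with the hybridisation controls set equal and -0.18 with the poly-A controls set equal, and that of AT5G41190 was -0.68 under the last of these.

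Translation factors did not share one direction. Of 8 measured initiation factors 1 rose and 1 fell with TSA, where 9.42% and 9.12% of all measured loci did. The median of the 8 was -0.15 on the log2 scale. Counts of 1 in 8 cannot be set apart from those shares. AT1G36730, an eIF5 gene, rose 3.69-fold with TSA after an imbibition log2 ratio of -3.01, and AT2G40290, an eIF2 alpha subunit gene, fell by 1.09. EIF4A-2, an RNA helicase of initiation, had a TSA log2 ratio of -0.19, and the eIF1 homologue AT4G27130 had 0.13. Of 2 measured elongation factors AT5G19510, of the eEF1B complex, fell by 1.32 and AT5G12110 had 0.02. In the TOR pathway, which promotes ribosome production, RAPTOR1 and AT5G63190 had TSA log2 ratios of 0.54 and 0.38. The 5 listed factors that bind ribosomal protein promoters had no probe set of their own. Of 8 measured plastid genes of the small subunit 0 fell and 2 rose with TSA, against 9.12% and 9.42% of all measured loci. Their median log2 ratio was 0.32. The 2 that rose were rps4, by 2.07-fold, and rps19, by 2.01-fold. Both lay just under 2-fold with 75th percentile scaling or the hybridisation controls set equal, and at log2 ratios of 0.61 and 0.58 with the poly-A controls set equal.

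Defining markers of the states also differed between the arrays. The summed signal of 6 measured dry seed markers (storage, oil body and LEA proteins; 15 listed) was 1278 with TSA, against 233.0 in untreated imbibed and 41894 in unimbibed seed. For 5 measured photosynthesis genes of the seedling (10 listed) it was 7695 with TSA, against 2095 and 237.4. Their log2 ratios of TSA over untreated seed were not alike and ranged from -0.15 to 3.23. All 6 dry seed markers were above the floor in TSA-treated and unimbibed seed, and 5 of 6 in untreated imbibed seed. The 5 photosynthesis genes were above it in imbibed seed with and without TSA, and 3 of 5 in unimbibed seed. The ratio of the 3′ to the 5′ probe set of a control transcript, a sign of RNA integrity, gave no common order of the arrays. It was 4.31 with TSA, 4.66 without it and 1.82 in unimbibed seed for actin, 2.71, 3.17 and 3.87 for ubiquitin, and 1.497, 0.88 and 1.31 for GAPDH. The part of these differences in the 40S ratios was not tested.

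The scaling decides how far the 40S genes rose, but in none of the 5 scalings tried did the median of either step change its direction. The median log2 ratio of TSA over untreated seed lay between -1.98 and -1.51, with 0 genes higher and 29 to 35 lower. Relative to the median of all measured loci it lay between -1.56 and -1.50. That of untreated over unimbibed seed lay between 1.09 and 2.77, with 18 to 34 genes higher. Relative to all measured loci this was 1.13 to 1.65. The signals of the poly-A controls differed between the arrays, and scaling to them moved the median of all loci above the floor on both arrays by -0.40 for TSA over untreated and by 1.31 for untreated over unimbibed seed.

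**Figure D5:**
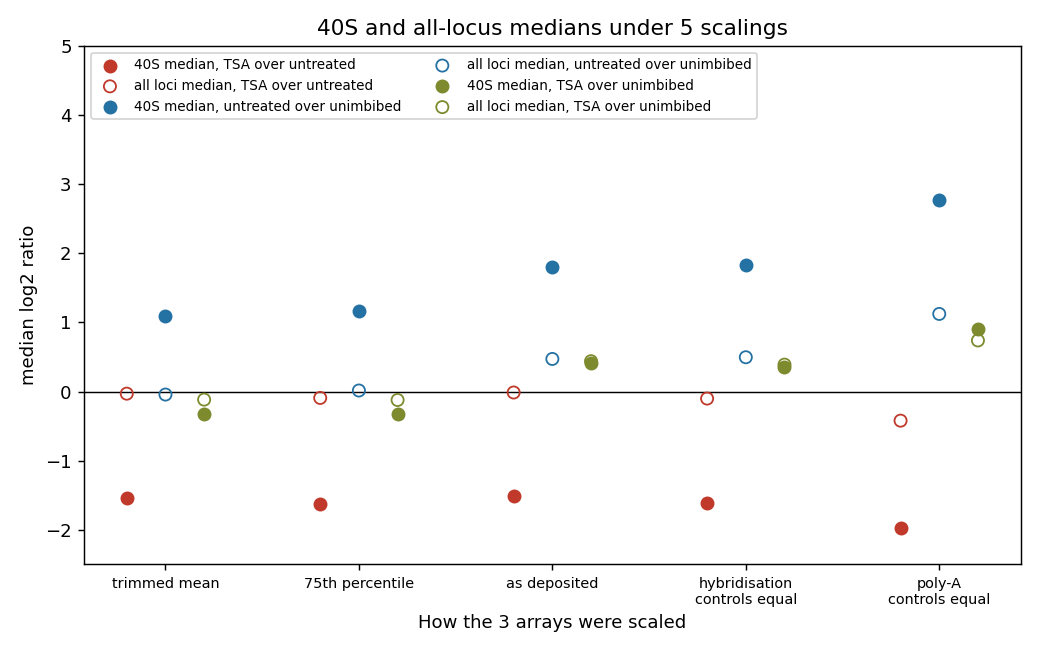
Median log2 ratio of the 36 genes (filled) and of all measured loci (open) in 3 comparisons under 5 ways of scaling the arrays. The medians for TSA over untreated seed stay between -1.98 and -1.51, and those for TSA over unimbibed seed lie on both sides of 0.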

How the data were processed

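The deposited values are signal intensity values, 1 for each of 22810 probe sets on 3 ATH1 arrays, made by the authors; the submitters' processing notes name MAS5. The version, the scaling target and any detection calls of that tool are not given here. After 64 control probe sets were left out, the arrays had 2% trimmed means of 44.4 (TSA), 43.4 (untreated) and 26.5 (unimbibed) and were scaled by 0.859, 0.877 and 1.44. Signals below the 40th percentile of all scaled values (10.7) were raised to it, which understates the ratios of dim genes. Ratios were formed as log2 differences, computed with Python 3.11.15, numpy 2.4.6 and pandas 2.3.3, and called at 2-fold. A locus counted as measured where at least 1 of the 2 signals was above the floor.

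The platform annotation, updated through the RefSeq gene table of TAIR10.1, gave 1 gene for 13513 probe sets, several for 503 and none for 8730. All 36 genes had 1 probe set. Paralog letters and protein roles come from general knowledge. The genes, lists and rules for naming were chosen with earlier results of these data known. Of the 36 genes, 34 are drawn and named one by one; the others enter the counts and medians and are not reported singly here. With 1 array per state no test was made, and precision is limited by the number of arrays. The calling step was tested on simulated data, with less noise than the gap between probe sets of a locus. The changes placed there were well past 2-fold and in loci well above the floor. That check does not measure the error of the calls made here. Alternatives were 4 other scalings, 3 other floors, the brightest probe set of a locus, probe sets with plain names and a 1.5-fold call. Promoter and protein sequences were not used here.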

Additional observations from a re-analysis of the deposited data

How the results depend on the processing

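For TSA over untreated seed the median moved by less than the gap between probe sets of a locus under every alternative, and the counts by less than 1.5 times, with 28 to 35 of the genes lower and 0 higher. The exception is the number of proteins whose paralogs differed. It was 3 in the main setting, 5 with a 1.5-fold call and 2 with the floor at the 60th percentile. The other comparisons depended on the scaling. The genes higher in untreated than in unimbibed seed numbered 31 with signals as deposited, 32 with hybridisation controls equal, 34 with poly-A controls equal and 28 with a 1.5-fold call. Under poly-A scaling the median of that comparison was 2.77 and 0 genes were lower. For TSA over unimbibed seed 6 genes were higher with signals as deposited, 5 with hybridisation controls, 12 with poly-A controls, 3 with a 1.5-fold call and 1 with the floor at the 25th percentile or no floor. The number lower there was 1 under each of the 3 scalings just named and 10 with a 1.5-fold call, and 8 proteins then had paralogs that differed. The median for TSA over unimbibed seed was 0.91 with poly-A controls. These scalings shift all loci of an array alike. Of 972 recomputed ratios of the 36 genes 894 moved by less than the gap between probe sets of a locus, and no called ratio changed sign. Of 702 such ratios of 26 genes of the other lists 648 moved by less than that gap and 3 called ratios changed sign, all under poly-A scaling. These were AT1G36730 at 0.12 and AT4G27130 at 0.25 for TSA over unimbibed seed, and AT4G27130 at 0.54 for untreated over unimbibed seed. All probe sets of the 36 genes have plain names and no gene has a second probe set. Those 2 alternatives could thus change no count and no ratio of these genes, and their unchanged ratios are among the 972. No paired analysis was possible because each state has 1 array. Depth cannot be stated for arrays; RPS9C and RPS11B were among the genes that came within 5% of the floor on at least 1 array.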
